A study of Homo sapiens with 2 samples.

Results

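The MHC class I presentation genes measured here are the heavy chain genes HLA-B, HLA-C, HLA-E and HLA-F, the light chain gene B2M, the transporter genes TAP1 and TAP2, the tapasin gene TAPBP, and NLRC5, which encodes a transcriptional activator of class I genes. They were taken as a fixed list of 9 genes among the 19775 genes that the annotation names on the array, with every probe set annotated to them. The annotation assigned 25 probe sets to these genes and 0 of them listed a further gene. The samples were 2 stable transfectants of MDA-MB 231, a highly invasive human breast cancer line that lacks the estrogen receptor: vector cells carrying the plasmid pIRES2-EGFP alone, and S100A7 cells carrying the same plasmid with S100A7 inserted, so that both lines hold the plasmid and its EGFP gene. S100A7, or psoriasin, is a small calcium-binding protein of inflamed epithelium, and the series was made to find the genes it regulates. Whether each line was a single clone or a pool of transfected cells is not given in the sources used here. The description of the S100A7 sample also holds a phrase about embryos, which cannot apply to a cell line and was set aside.

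With 1 array per group there was no replicate, no test and no p-value, so each difference below compares 2 arrays and not 2 conditions. A probe set counted as measured when its intensity reached the array's 50th percentile, called the floor here (71.0 for vector cells, 69.0 for S100A7 cells), on 1 array or both. A value under the floor was set to it, which turns the ratio into a bound. Where a gene had several measured probe sets, the brightest gave the value of the gene. Probe sets that share a gene differed in log2 ratio with a pooled standard deviation of 0.36 over 6465 genes, the 1 measure of spread that the arrays themselves offer. The transgene's own probe set read 11.99 for vector and 13232 for S100A7. ESR1, PGR, CDH1 and FOXA1, which this line lacks or holds at low levels, were under the floor on both arrays, whereas EPCAM (544 and 513) and GATA3 (720 and 752) were above it. KRT19, also listed as low in the line, was above the floor on the vector array only (72.6 and 41.6). The 7 markers listed as high in the line, among them VIM and CD44, were all measured. Of 10 leukocyte markers 4 were measured, with log2 ratios from -0.81 for CD53 to 0.66 for LAPTM5. LCP1 (11511 and 11589) and LAPTM5 (2563 and 4048) were bright, and CD53 (255 and 145) and CORO1A (94.9 and 86.9) were dim. PTPRC, CD3E, CD14, LYZ and TYROBP were under the floor on both arrays. Of 7 fibroblast and endothelium markers 2 were measured, PECAM1 (132 and 168) and CDH5 (24.8 and 79.0).

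Class I molecules show peptides from inside the cell to CD8 T cells and are read by natural killer cells. A heavy chain pairs with beta-2 microglobulin in the endoplasmic reticulum, the TAP transporter brings in peptides cut by the proteasome, and tapasin holds the empty molecule beside the transporter until a peptide is bound. NLRC5 has no DNA-binding domain of its own: it is recruited to the SXY module of class I promoters, where the RFX complex, CREB or ATF1, and NF-Y bind the X1, X2 and Y boxes. Interferon-gamma raises most of these genes, and tumor cells often carry them at low levels.

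The promoters of the members show where these factors could bind, and are given here because the report sets NLRC5 beside the genes it activates. RefSeq promoter sequences on build GRCh38.p14 were matched by symbol for 7 of the 9 genes. The 200 bases before the start (for TAP1, the outermost start listed) are printed 5′ to 3′ on the gene's strand for 6 of these. Capitals mark matches, on either strand, to TGACG (the core of an X2 box), ATTGG (the core of a Y box, CCAAT on the other strand), GAAA repeated after any 2 bases (the core of an interferon-stimulated response element) and GGG, any 2 bases, TT, any 1 base and CC (an NF-kB motif). Matches that overlap run together.
HLA-B (chr6:31357180-31357379, minus strand): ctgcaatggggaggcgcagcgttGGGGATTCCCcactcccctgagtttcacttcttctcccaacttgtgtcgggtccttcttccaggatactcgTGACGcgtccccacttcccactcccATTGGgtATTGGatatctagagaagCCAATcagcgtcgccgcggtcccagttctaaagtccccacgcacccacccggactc
HLA-C (chr6:31272093-31272292, minus strand): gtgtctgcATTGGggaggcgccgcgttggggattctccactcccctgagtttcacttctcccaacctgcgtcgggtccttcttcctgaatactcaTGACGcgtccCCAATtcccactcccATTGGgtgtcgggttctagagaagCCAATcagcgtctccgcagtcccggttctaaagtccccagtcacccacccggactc
HLA-F (chr6:29723234-29723433, plus strand): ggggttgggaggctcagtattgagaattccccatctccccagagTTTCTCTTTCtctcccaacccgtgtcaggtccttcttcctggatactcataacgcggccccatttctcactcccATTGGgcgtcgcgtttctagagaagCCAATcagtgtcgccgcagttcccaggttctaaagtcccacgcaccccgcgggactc
B2M (chr15:44711317-44711516, plus strand): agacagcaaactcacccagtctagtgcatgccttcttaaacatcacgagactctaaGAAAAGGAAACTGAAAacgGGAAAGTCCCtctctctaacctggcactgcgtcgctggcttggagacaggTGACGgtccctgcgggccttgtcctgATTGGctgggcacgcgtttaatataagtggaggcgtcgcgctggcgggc
TAP1 (chr6:32853705-32853904, minus strand): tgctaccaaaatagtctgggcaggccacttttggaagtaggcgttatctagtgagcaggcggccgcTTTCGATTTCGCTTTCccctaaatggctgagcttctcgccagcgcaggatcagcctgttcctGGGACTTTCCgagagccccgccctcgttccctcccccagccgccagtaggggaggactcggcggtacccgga
TAPBP (chr6:33314079-33314278, minus strand): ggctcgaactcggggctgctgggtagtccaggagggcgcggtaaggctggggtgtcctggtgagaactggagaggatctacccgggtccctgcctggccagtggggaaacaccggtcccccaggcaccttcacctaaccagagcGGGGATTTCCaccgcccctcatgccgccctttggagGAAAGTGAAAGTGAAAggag

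In HLA-B and HLA-C a TGACG was followed after 20 bases by ATTGG, and in B2M after 21 bases. Such a module, with a gap of 15 to 25 bases, was found in 0.379% of 35116 promoter windows of the same length, against 18.4% for TGACG alone and 28.0% for ATTGG alone. HLA-F had the ATTGG and no TGACG in this window. TAP1, TAP2 and TAPBP had no such module, and each held at least 1 GAAA repeat, which was found in 2.40% of windows. That motif also occurred in HLA-F and B2M. The NF-kB motif, found in 4.28% of windows, occurred in HLA-B, B2M, TAP1 and TAPBP. These matches describe letters and do not show that a factor was bound.

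NLRC5 had the highest ratio of the 9 genes. Its 1 probe set read 123 for vector and 311 for S100A7, 2.52-fold higher, with a log2 ratio of 1.33. It was the 1 member at least 2-fold higher, against 1.8% of all 12688 measured genes, and 0 members were at least 2-fold lower, against 2.25% of all. No second probe set of NLRC5 was present to compare with it. The vector reading was 1.74 times the floor, in a dim range where large ratios are more frequent than on the array as a whole. Of 1467 other genes whose mean log2 intensity lay within 0.5 of that of NLRC5, 3.75% were higher by 2-fold or more, 4.91% were lower by as much, and 2.04% had a log2 ratio at least as high as NLRC5. With a floor at the 70th percentile (283 on both arrays) the vector reading fell under the floor, and the bound on the log2 ratio was 0.13. The measured genes on either side of NLRC5 along chromosome 16 did not share its ratio: NUP93 was at -0.20, HERPUD1 at 0.03, CPNE2 at -0.32 and PSME3IP1 at -0.44.

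The 8 other members, taken here as the genes that NLRC5 activates, had smaller ratios, and as a group lay above the array's median. Whether NLRC5 acts on each of them in these cells was not tested. Their log2 ratios ran from -0.03 for B2M to 0.83 for TAPBP, with a median of 0.32, which is 1.01 below the ratio of NLRC5. Over all 9 members the median was 0.35, against -0.04 for all measured genes, and 8 of the 9 had a log2 ratio above 0, against 45.8% of all measured genes. At the level of probe sets, 20 of the 24 measured ones were above 0, against 48.8% of all measured probe sets. These are not independent readings: 13 are heavy chain probe sets, 11 of which have probes that can match other transcripts. Also, 7 of the 9 members lie on chromosome 6, where 74.7% of the other measured genes were above 0. Of the 7 members with at least 2 measured probe sets, HLA-F, B2M and TAP2 had probe sets on both sides of 0. The log2 ratios of NLRC5, TAPBP, HLA-F and HLA-C exceeded the spread of 0.36 between probe sets of one gene, and those of the other 5 members did not. Ratios of this size were common: 14.4% of all measured genes had a higher ratio than HLA-C, and 17.9% a higher one than HLA-B. That spread compares probe sets on the same 2 arrays and does not measure the spread between arrays or cultures.

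**Figure D1:**
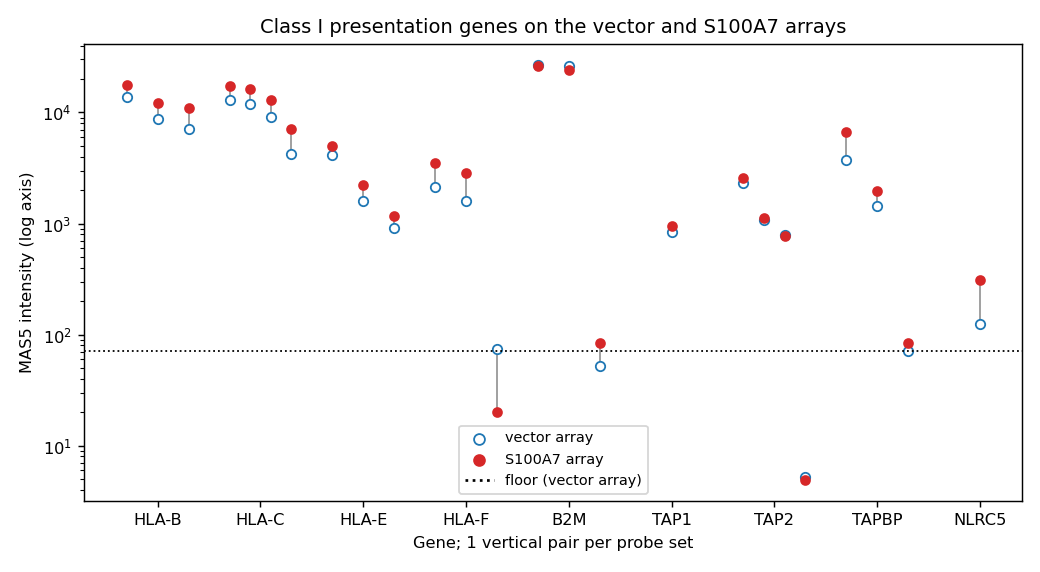
MAS5 intensity (log axis) of all 25 probe sets of the 9 genes, with the vector array as open blue points and the S100A7 array as filled red points joined by a line; the dotted line is the floor of the vector array (71.0). The red point lies above the blue one for every bright HLA probe set, whereas both bright B2M probe sets lie slightly lower on the S100A7 array.

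The heavy chain genes encode the chain that holds the peptide and were higher on the S100A7 array at every probe set that was above the floor on both arrays. There were 12 such probe sets, with log2 ratios from 0.28 to 0.82 and a median of 0.48. HLA-B, one of the classical class I genes, read 13852 and 17668 at its brightest probe set, 8688 and 12142 at the next, and 7111 and 11032 at the third. Its log2 ratios were 0.35, 0.48 and 0.63 in that order. HLA-C, the classical gene that is the main ligand of inhibitory natural killer receptors, read 12970 and 17325, 11914 and 16197, 9162 and 12959, and 4237 and 7044 at its 4 probe sets. The log2 ratios were 0.42, 0.44, 0.50 and 0.73. In both genes the ratio was larger at each dimmer probe set. All 7 of these probe sets carry the suffix _x_at, which marks probes that can match other transcripts. The class I genes are near-identical over long stretches, so the readings of HLA-B and HLA-C are not independent, and how far each probe set reads its own gene was not tested.

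HLA-E, a nonclassical heavy chain that presents leader peptides of other class I chains to the receptor CD94-NKG2, had the smallest ratio of the heavy chains. Its probe sets read 4112 and 5010, 1584 and 2200, and 915 and 1166, with log2 ratios of 0.28, 0.47 and 0.35. The last of these has no suffix for shared probes. HLA-F, a nonclassical chain that can reach the surface without peptide, had the largest. It read 2152 and 3499 at the brightest probe set (log2 ratio 0.70) and 1606 and 2844 at the next (0.82). Its other probe set, the 1 without the suffix _x_at, read 73.7 in vector cells, just above the floor, and 19.9 in S100A7 cells, under it, for a bound of -0.10. The higher reading of HLA-F therefore rests on probe sets open to other class I transcripts.

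Probe sets of class I relatives gave readings of the same kind. HLA-G, a heavy chain of the placenta, read 6564 and 8963 at its representative probe set, and its 4 probe sets had log2 ratios from 0.15 to 0.87. The 1 probe set of HLA-J, a class I pseudogene, read 1820 and 2662 (0.55). All of these end in _x_at, and how much of their signal came from HLA-B, HLA-C or other class I transcripts was not tested.

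B2M, the light chain that pairs with class I heavy chains in the endoplasmic reticulum, had the lowest ratio of the 9. Its bright probe sets read 26865 and 26226 and 26076 and 24129, with log2 ratios of -0.03 and -0.11. A dim probe set read 52.4 and 83.3, for a bound of 0.23. The median of the 4 heavy chain genes exceeded the ratio of B2M by 0.42. The sign of B2M turned with the scaling, from -0.03 as deposited to 0.07 after quantile normalization. Genes at least as bright as B2M were lower as a set: of 95 such genes, B2M included, 9 were above 0, and their median was -0.16. Among 2275 other genes at least as bright as the dimmest of the heavy chain genes, the median was -0.04, 15.3% had a log2 ratio of at least 0.28, the lowest heavy chain value, and 1.85% reached 0.70, the highest.

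**Figure D2:**
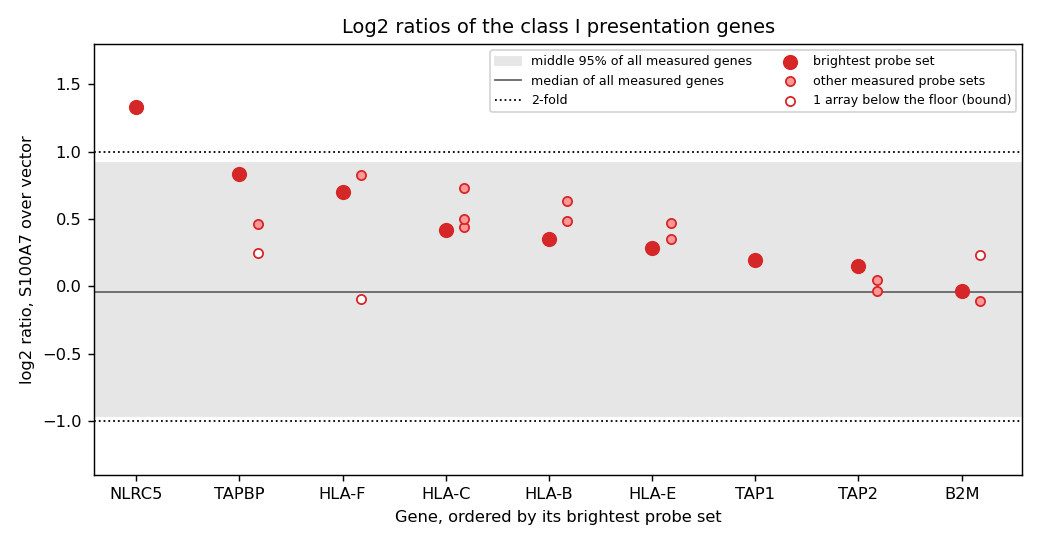
Log2 ratio of S100A7 over vector for each measured probe set, with genes ordered by the brightest probe set (large points); open points are bounds, the grey band holds the middle 95% of all measured genes, and dotted lines mark 2-fold. NLRC5, at 1.33, is the 1 gene beyond 2-fold, and TAPBP, at 0.83, is the next.

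The genes that load peptides differed among themselves, with a high ratio for TAPBP and low ones for the transporter genes. TAPBP read 3707 for vector and 6611 for S100A7 at its brightest probe set, 1.78-fold higher (log2 ratio 0.83). A smaller difference was seen at its next probe set, which read 1434 and 1976 (0.46), and the dimmest, at 70.7 and 84.5, gave a bound of 0.25. All 3 lay on the same side of 0, and 3.34% of all measured genes had a higher ratio than the brightest. TAP1, 1 of the 2 chains of the peptide transporter, read 834 and 956 at its 1 probe set (0.20). TAP2, the other chain, read 2303 and 2559, 1080 and 1115, and 791 and 771 at its 3 measured probe sets, with log2 ratios of 0.15, 0.05 and -0.04. The remaining probe set, at 5.25 and 4.91, was under the floor on both arrays and was the 1 member probe set not measured. The differences of TAP1 and TAP2 were smaller than the spread between probe sets of one gene.

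Of the 9 genes, 7 lie on chromosome 6, where genes in general were higher on the S100A7 array. From HLA-F to TAPBP, the end members along the chromosome, 82 other genes were measured. Their median log2 ratio was 0.22, and 62 of them (75.6%) were above 0. The remaining 575 measured genes of chromosome 6 had a median of 0.25, with 74.6% above 0. The 7 members had a median of 0.35, and 5 of them lay above the median of the 82. After the median of the 40 nearest measured genes was subtracted, 20 on each side with members left out, HLA-B was at 0.11, HLA-C at 0.18, HLA-E at 0.12, HLA-F at 0.56, TAP1 at 0.03, TAP2 at -0.02 and TAPBP at 0.72. The ratios of HLA-F and TAPBP were thus mostly kept, while those of the other 5 were at most 0.18. The neighbours include class I relatives (HLA-G, HLA-J, MICA and MICB) and proteasome genes (PSMB8 and PSMB9). How much class I signal the subtraction removes through them was not tested.

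Chromosomes 15 and 16 lay on the other side. The 419 other measured genes of chromosome 15, which carries B2M, had a median of -0.33, with 19.1% above 0. Relative to its 40 neighbours, whose median was -0.24, B2M was at 0.21. Of the measured genes next to it, SPG11 was at 0.01, PATL2 at a bound of -0.10 and AFG2B at -0.20, while TRIM69 read 309 and 154. The 565 other measured genes of chromosome 16 had a median of -0.13, and NLRC5 was 1.45 above the median of its neighbours. With neighbours subtracted, the median of the 9 members was 0.18, and TAP2 was below 0. B2M, at -0.03 before the subtraction, was above 0 after it. NLRC5, TAPBP and HLA-F exceeded the spread of 0.36 between probe sets of one gene, and the other members did not. The share of all measured genes above 0 after the subtraction was not computed.

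**Figure D3:**
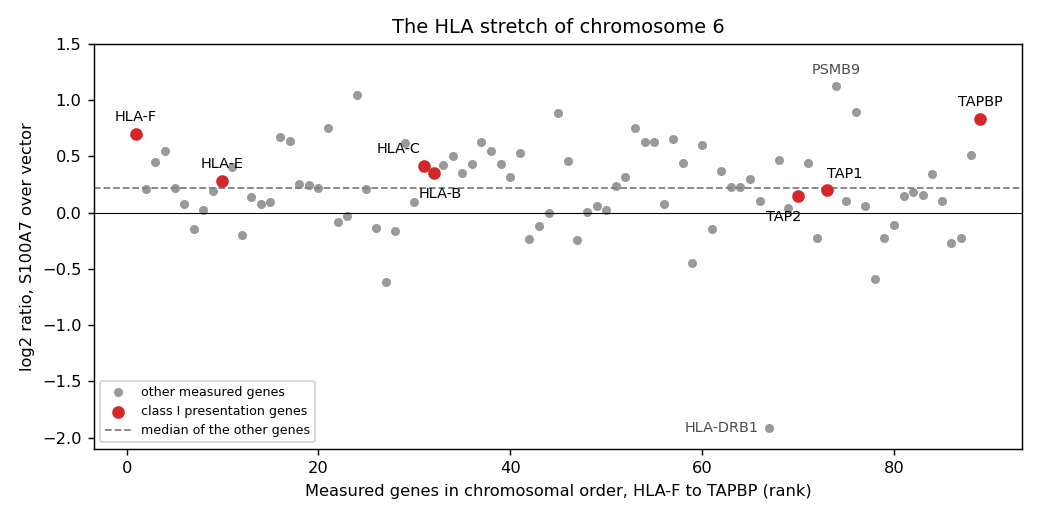
Log2 ratio of S100A7 over vector for the measured genes from HLA-F to TAPBP on chromosome 6, plotted by their rank along the chromosome, with class I presentation genes in red and the median of the other 82 genes (0.22) dashed. HLA-F and TAPBP stand highest of the red points, TAP1 and TAP2 lie just under the dashed line, and PSMB9 and HLA-DRB1 are the extremes among the grey ones.

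Genes that work with NLRC5 or beside the members were then counted from lists of the pathway. For every list below, the shares over all measured genes were 45.8% above 0, 1.8% at least 2-fold higher and 2.25% lower by as much. A single value is that of the brightest probe set. Other probe sets of a gene can lie on the other side of 0, as they did for CALR, CANX and PSMB7. Of its 8 listed DNA-binding partners 7 were measured, 4 of them above 0, 1 higher by 2-fold or more and 0 lower by as much, with a median of 0.21. RFX5, the DNA-contacting subunit of the RFX complex, read 1042 for vector and 2261 for S100A7, 2.17-fold higher (log2 ratio 1.12), and its other probe set was at 0.45. The other RFX subunits were at 0.59 for RFXAP and 0.21 for RFXANK, so all 3 were above 0. Of the NF-Y subunits, which bind the Y box, NFYA was at -0.19, NFYB at -0.52 and NFYC at 0.43. CREB1, a factor of the X2 box, was at -0.03, with 7 probe sets from -0.87 to 0.05, and ATF1 is not analysed here.

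The proteasome cuts the peptides that TAP carries. Of 10 listed genes 9 were measured, 6 of them above 0, 1 at least 2-fold higher and 0 lower by as much, with a median of 0.29, or -0.05 without probe sets ending in _x_at or _s_at. The catalytic subunits of the immunoproteasome, the form that interferon induces, were at 1.12 for PSMB9 (461 and 1004, 2.18-fold higher), 0.75 for PSMB10 and 0.44 for PSMB8. The constitutive subunits that they replace were at -0.18 for PSMB7, -0.10 for PSMB5 and -0.05 for PSMB6. PSMB9 and TAP1 start 488 bases apart and are read in opposite directions, and their log2 ratios differed by 0.93, each on 1 probe set. Of the paired proteasome activator subunits, PSME1 was at 0.30. Its partner PSME2, the 1 listed gene left out of the count because its probe set also lists a microRNA gene, read 5391 and 4503 (-0.26).

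Genes for folding, trimming and loading in the endoplasmic reticulum were near the array's median. Of 12 listed genes 11 were measured, 5 of them above 0 and 0 lower by 2-fold or more, with a median of -0.05. ERAP1, which trims peptides to their final length, was the 1 at least 2-fold higher, at 417 and 1039 (2.49-fold, log2 ratio 1.32), although its 3 probe sets ran down to -0.39. Its companion ERAP2 was at 0.34, with 4 probe sets from -0.43 to 0.67. The chaperones of heavy chain folding were at 0.17 for CALR, -0.05 for CANX and -0.22 for PDIA3. ERAP1 and PSMB9 were the listed genes with ratios nearest to that of NLRC5, at distances of 0.01 and 0.21 on the log2 scale, a likeness over 2 arrays only.

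The signalling genes upstream of NLRC5 and class I went both ways. Of 15 listed genes 13 were measured, 7 above 0 and 0 outside 2-fold, with a median of 0.13. The interferon-gamma receptor chains were at 0.60 for IFNGR1 and -0.16 for IFNGR2, and the kinases that they use at 0.13 for JAK1 and -0.70 for JAK2. IRF1, which drives class I genes after interferon, was at -0.29, and IRF2 was at 0.76. Of the NF-kB subunit genes, RELA was at 0.60 and NFKB1 at -0.29. EZH2, the methyltransferase of a complex that can silence class I genes, read 2256 and 1462 (-0.63).

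Class I-like genes and stress ligands of natural killer cells had a median of 0.43 over 9 measured of 14 listed, with 6 of the 9 above 0 and 0 outside 2-fold. MICA and MICB, ligands of the receptor NKG2D, were at 0.51 and 0.43, and ULBP2, another ligand, at 0.68. RAET1E, a further NKG2D ligand, was at -0.47 (189 and 136). PROCR, the endothelial protein C receptor, was at -0.36, FCGRT, the heavy chain of the neonatal Fc receptor, at -0.31, and MR1, which presents vitamin metabolites, at 0.06. HFE, the class I-like regulator of iron uptake, was at 0.76, with 14 probe sets from 0.17 to 1.24. HLA-G, HFE, MICA, MICB and ULBP2 lie on chromosome 6, as does RAET1E, and with neighbours subtracted the median of the list was 0.18. Class II genes, which NLRC5's relative CIITA drives, had a median of 0.10 over 7 measured of 12 listed, and CIITA was under the floor on both arrays. CD74, the invariant chain, was at least 2.11-fold higher, and HLA-DRB1 was 3.77-fold lower, at 267 and 70.8, on a probe set with shared probes whose S100A7 reading was just above the floor of 69.0. Genes for class I turnover and traffic had a median of -0.06 over 10 measured of 11 listed, with 3 above 0 and 0 outside 2-fold.

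**Figure D4:**
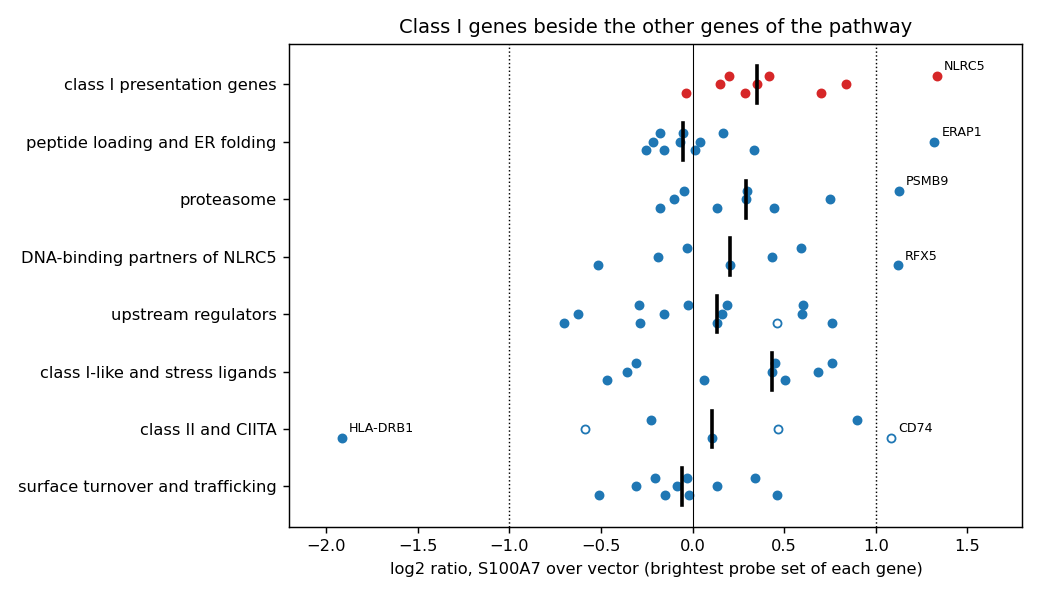
Log2 ratio of S100A7 over vector for each measured gene (brightest probe set) of the class I presentation genes in red and of 7 pathway lists in blue; open points are bounds, black bars are list medians and dotted lines mark 2-fold. The genes beyond 2-fold are NLRC5, ERAP1, PSMB9, RFX5 and CD74 on the right and HLA-DRB1 on the left.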

How the data were processed

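Total RNA of 2 MDA-MB 231 transfectants was hybridised to Affymetrix arrays, 1 per line. Each probe set has 1 deposited intensity, on a linear scale, which the authors computed with MAS5, per the submitters' processing notes. Its version, its target for scaling and its detection calls were not given in the sources used here. Both arrays had a mean of 500.1 once 2% of probe sets was trimmed from either end, so values were used as deposited, with 0 columns unused. Of 54675 probe sets, 41097 had 1 gene in the platform annotation, 1801 several and 11721 none listed, and 62 were controls, 6 of which are also among those with 1 gene and were left out of gene values; current symbols came from a RefSeq gene table on GRCh38.p14 through Entrez identifiers. The log2 ratio of S100A7 over vector was computed with each array's 50th percentile as a floor. The number of arrays limits the precision. Calculations used Python 3.11.15 and pandas 2.3.3, and the counting step was tested on simulated data.

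The members and lists were chosen with earlier results of these data known. Text names every member probe set, the members of each list at least 2-fold apart (up to 3 in each direction), the partners of NLRC5, the 2 listed genes nearest to NLRC5 in ratio, and the 2 genes on each side of NLRC5 and B2M; other genes were chosen after their values were seen, as were the promoter motifs and the comparison with bright genes. Alternatives were other scalings, floors of the 30th and 70th percentile or none, a pseudocount of 32, other probe set rules, thresholds of 1.5-fold and 3-fold, and subtraction of chromosomal neighbours.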

Additional observations from a re-analysis of the deposited data

How the results depend on the processing

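The median log2 ratio of the 9 class I genes stayed above 0 under all 10 alternatives to which it was subject, from 0.18 with chromosomal neighbours subtracted to 0.46 with the median over probe sets. Not all of these could move it. With a floor at the 30th percentile, no floor, or probe sets listing several genes included, it was the same 0.35. Scaling by the median added the same amount to every log2 ratio. With a floor at the 70th percentile, NLRC5 minus the median of the genes it activates turned from 1.01 to -0.18, because the vector reading of NLRC5 was then raised to the floor, and 0 members were at least 2-fold higher. Otherwise that difference ran up to 1.30. At a threshold of 1.5-fold 3 members were higher, and at 3-fold 0 were. Without probe sets ending in _x_at or _s_at, 6 members were left and 5 of them were above 0. The share of all measured genes above 0 under this rule was not computed. B2M was then at a bound of 0.23, from its dim probe set alone (52.4 and 83.3), and HLA-F at a bound of -0.10. TAPBP was at 0.46 with the median over probe sets. Including probe sets that list several genes changed no member. The median of the class II list turned from 0.10 to -0.22, and that of the upstream regulators from 0.13 to -0.02, when probe sets listing several genes were included; with neighbours subtracted, the class II median was -0.10 and that of the list for folding and loading turned from -0.05 to 0.04. Over all genes, the numbers at least 2-fold higher and lower were 228 and 286 as reported, 679 and 979 when the floor was the 30th percentile, 99 and 88 when it was the 70th, 1911 and 2387 with no floor or filter, 1030 and 1275 at 1.5-fold, and 47 and 55 at 3-fold. No paired analysis was possible because each group holds 1 array. With 1 array per line, the spread over cultures and over independently selected lines is unknown, and a difference between these lines cannot be told apart from one set by the selection of each line. Shared probes among class I genes limit HLA-B, HLA-C and HLA-F most, and signal near the floor limits NLRC5.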
